A study of Mus musculus with 246 samples.

Results

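The 9 genes described here are Nrxn2, Nrxn3, Nlgn1, Nlgn2, Nlgn3, Lrrtm1, Lrrtm2, Lrrtm3 and Lrrtm4, taken by gene name from a table of 56691 genes, and all 9 had a count in every library. RNA was sequenced from bilateral, pooled punches of 6 brain regions of 41 adult male CD1 mice, an outbred stock. The regions were the medial prefrontal cortex (mPFC), the anterior cingulate cortex (ACC), the nucleus accumbens shell (Nacc), the basolateral amygdala (BLA), the dorsomedial thalamus (DMT) and the ventral hippocampus (vHipp). Ctrl_Veh mice were reared with standard bedding by dams given vehicle, ELA_Veh mice went through early life adversity (limited bedding and nesting in the first postnatal days) with dams given vehicle, and ELA_SAFit2 mice went through the same adversity with dams given SAFit2, an inhibitor of the stress protein FKBP51, in a slow-release gel. The drug therefore reached the pups through the milk, and no group received SAFit2 without adversity. The mice of the NoInteraction set (7 per condition) were taken without further exposure, and those of the SocialInteraction set (6 Ctrl_Veh, 7 ELA_Veh and 7 ELA_SAFit2) after 10 minutes with an unfamiliar mouse.

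Neurexins are presynaptic adhesion proteins whose extracellular part reaches across the synaptic cleft. Neuroligins and leucine-rich repeat transmembrane (Lrrtm) proteins sit on the postsynaptic side and bind neurexins, so that the pairing helps to organise transmitter release sites opposite their receptors. Nlgn1 is known mainly from excitatory synapses, Nlgn2 from inhibitory synapses and Nlgn3 from both, while the Lrrtm proteins are known from excitatory synapses.

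Total counts per library lay between 20804219 and 43351397, and the lowest count of any of the 9 genes in a library was 262 (Lrrtm3). Levels are given as CPM, the count scaled to the library total after TMM scaling, and levels of different genes are compared only per kilobase of exon (CPM per kb). The region labels were checked with marker genes: the summed level of 6 striatal markers was highest in the Nacc (median 2730 CPM), that of 5 thalamic markers in the DMT (2198 CPM), that of 6 glutamatergic markers in the vHipp (7042 CPM) and that of 3 basolateral amygdala markers in the BLA (391.6 CPM). The summed level of 5 hippocampal markers did not single out the vHipp (median 440.7 CPM), being higher in the Nacc (571.7 CPM) and the BLA (505.7 CPM). No list was specific to the mPFC or the ACC, so their labels were not told apart this way. BLA libraries also carried striatal markers (median 1048 CPM) and choroid plexus markers (median 2665 CPM, range 23.01 to 5728 CPM). Olfactory bulb markers in mPFC libraries had a median of 19.3 CPM and a range of 8.1 to 389.3 CPM. In the Nacc, 12 of 41 libraries matched another mouse than their label by genes that differ between mice, 2 in each of the 6 groups, and none did in the other 5 regions. They were kept under their labels, and the calls of the 9 genes that change without them are given with their values. The ACC and Nacc libraries of ELA_Veh NoInteraction mouse 99 were each the lowest or highest of 41 for 6 of the 9 genes, and also had the highest glutamatergic marker level of their region.

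The promoters of 3 members are shown because Lrrtm1 and Lrrtm3 had the widest regional ranges of the 9 genes, in different directions, and Nlgn2 was the neuroligin with the highest level per kb. Each run holds 250 bases before and 50 after the start site in the gene's direction (RefSeq, build GRCm38.p6), with CG dinucleotides in capitals. In the promoter table used here, 10 promoters of 6 of the 9 genes were matched, and Nrxn2, Nlgn3 and Lrrtm2 were not analysed here. The 3 runs lie at chr6:77242227-77242526 on the plus strand, chr10:64090206-64090505 on the minus strand and chr11:69837735-69838034 on the minus strand.
Lrrtm1: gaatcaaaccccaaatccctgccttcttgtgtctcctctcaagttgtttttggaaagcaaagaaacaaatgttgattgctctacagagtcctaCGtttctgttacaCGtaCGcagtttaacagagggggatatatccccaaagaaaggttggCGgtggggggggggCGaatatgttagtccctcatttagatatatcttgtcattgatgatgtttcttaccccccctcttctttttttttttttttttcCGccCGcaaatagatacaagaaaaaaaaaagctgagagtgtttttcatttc
Lrrtm3: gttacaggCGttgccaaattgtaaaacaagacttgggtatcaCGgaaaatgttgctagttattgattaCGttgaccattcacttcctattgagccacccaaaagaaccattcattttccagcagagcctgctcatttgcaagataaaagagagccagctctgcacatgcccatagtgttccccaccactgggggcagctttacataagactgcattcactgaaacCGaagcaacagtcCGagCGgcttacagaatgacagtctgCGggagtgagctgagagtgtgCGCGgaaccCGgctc
Nlgn2: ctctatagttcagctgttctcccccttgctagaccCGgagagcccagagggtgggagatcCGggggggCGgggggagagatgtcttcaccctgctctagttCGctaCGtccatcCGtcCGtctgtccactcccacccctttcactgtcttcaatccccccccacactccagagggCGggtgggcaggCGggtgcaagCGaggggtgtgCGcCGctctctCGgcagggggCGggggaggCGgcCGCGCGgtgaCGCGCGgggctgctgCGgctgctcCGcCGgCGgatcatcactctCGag
The Nlgn2 run holds 26 CG dinucleotides, a number reached by 16.9% of 32851 mouse promoters of this length, against 7 for Lrrtm1 and 10 for Lrrtm3, where the median promoter has 7. TGACG, the core of the cyclic AMP response element, was found on either strand in the Nlgn2 run and not in the other two, and 20.8% of all promoters hold it. GGGCGG, a GC box, was found on either strand in the Lrrtm1 and Nlgn2 runs and in 35.7% of all promoters. TATAAA was in none of the 3 runs and in 13.6% of all promoters.

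The genes lie on 8 chromosomes. In the GENCODE M21 annotation of build GRCm38, Nrxn2 covers chr19:6418731-6544169, Nrxn3 chr12:88722876-90334935, Nlgn1 chr3:25426215-26332460, Nlgn2 chr11:69823122-69837784 and Nlgn3 chrX:101299168-101325963, whereas the notes on the authors' processing name build GRCm39. Lrrtm1 (chr6:77242689-77257791), Lrrtm2 (chr18:35209003-35215024) and Lrrtm3 (chr10:63928472-64090277) each lie inside an alpha-catenin gene on the opposite strand, Ctnna2, Ctnna1 and Ctnna3 respectively. Lrrtm4 covers chr6:80018877-80810143. The exons of Lrrtm1 and Lrrtm3 share no base with exons of their host, but those of Lrrtm2 overlap exons of Ctnna1. The library kit keeps the strand, but the strand setting of the counting is not given in the sources used here, so Lrrtm2 is the least certain of the 9 values.

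The 9 genes differed between most pairs of regions. Over the 15 pairs of regions, 118 of 135 tests of the 9 genes passed an adjusted p of 0.05 (edgeR's quasi-likelihood test with mouse as a block, Benjamini-Hochberg adjustment over all genes tested), beside 76.7% of the tests of all 17381 genes. Most genes thus differed between these regions, and the members are described by the size of the differences. Overlap of the libraries of a pair of regions was counted for the 9 genes only. Whether a lack of overlap is unusual among all genes was not tested. Punches hold many cell types, and fewer cells of a type cannot be told apart from less RNA per cell. The plot of levels by region shows flat profiles for Nrxn2, Nlgn2 and Nlgn3 and steep ones for Lrrtm1, Lrrtm3 and Lrrtm4.

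**Figure D1:**
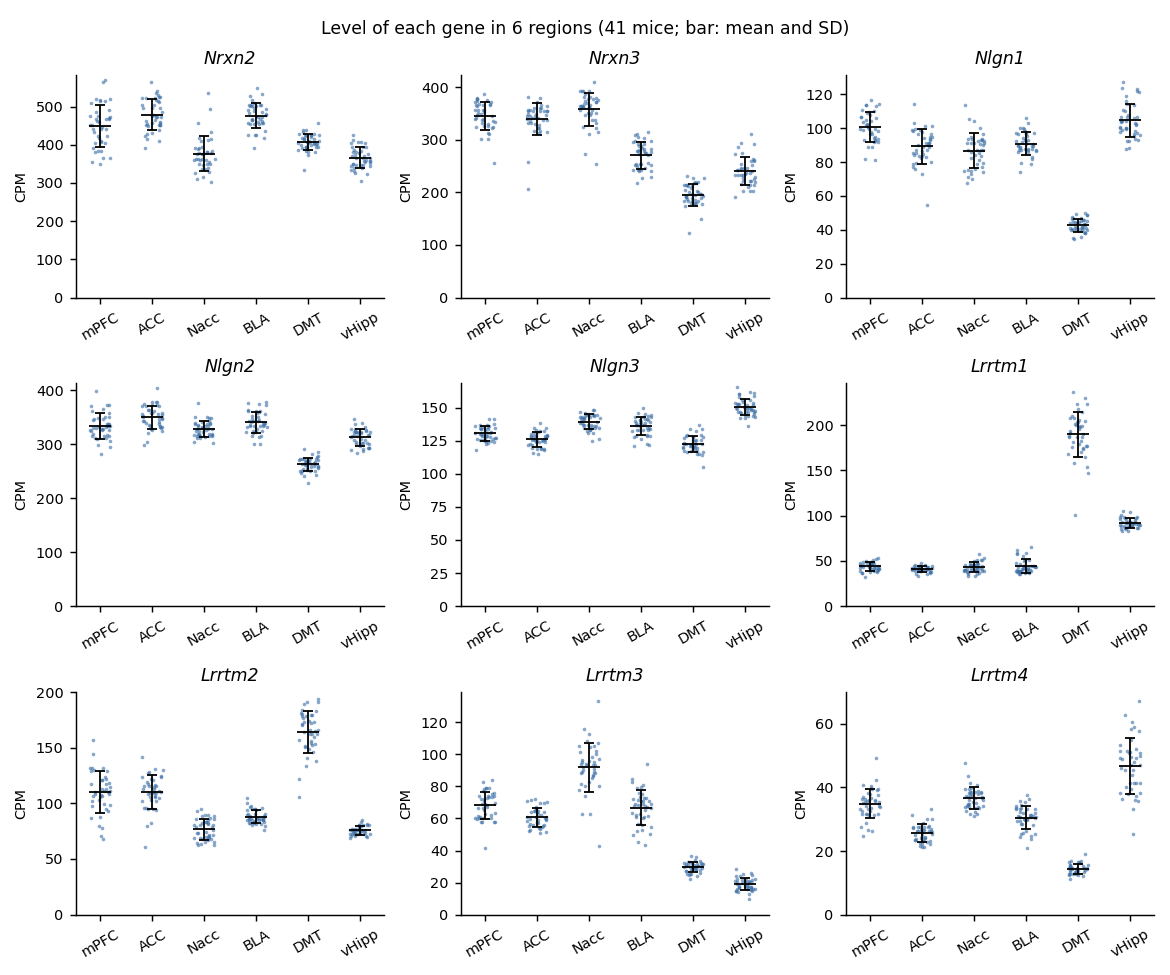
Level of each of the 9 genes in CPM (y axis, from 0) in 6 brain regions (x axis), with a point for each of 41 mice and a bar for the mean and SD. Lrrtm1 had its highest mean in the DMT (190.0 CPM) and Lrrtm3 in the Nacc (92.1 CPM), while the means of Nlgn3 lay between 122.7 and 150.6 CPM.

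Of the neurexins, Nrxn2 was spread evenly. Its mean was 478.7 ± 40.3 CPM in the ACC (SD, n = 41 in this and the following region values), 475.7 ± 32.9 in the BLA, 448.5 ± 55.1 in the mPFC, 406.6 ± 21.6 in the DMT, 376.2 ± 45.8 in the Nacc and 365.9 ± 27.3 in the vHipp. The ACC stood 1.30-fold above the vHipp (log2 0.38, SE 0.027, adjusted p = 9.8e-32, edgeR), and all 15 pairs of regions overlapped. ACC against BLA did not pass (adjusted p = 0.84), nor did Nacc against vHipp (0.24). Nrxn3 followed another order. It had a mean of 357.8 ± 30.98 CPM in the Nacc, followed by 345.8 ± 26.5 in the mPFC and 339.9 ± 30.5 in the ACC, and lower values of 270.0 ± 25.3 in the BLA, 240.2 ± 26.8 in the vHipp and 195.6 ± 20.9 in the DMT. Nacc and DMT did not overlap and differed 1.83-fold (log2 0.87, SE 0.031, adjusted p = 7.3e-71). Nacc against mPFC (adjusted p = 0.12) and mPFC against ACC (0.58) did not pass, and the difference of ACC and Nacc was lost without the 12 Nacc libraries (adjusted p = 0.20). The balance of the 2 genes therefore shifted between regions: per kb, Nrxn2 made up 65.5% ± 2.6 of the summed level of both in the DMT and 48.9% ± 4.4 in the Nacc.

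Among the neuroligins, Nlgn2 was the highest per kb in every region. It made up between 69.2% ± 1.2 (vHipp) and 74.9% ± 1.0 (ACC) of the summed level of the 3 genes, with Nlgn3 between 16.9% ± 0.86 (ACC) and 21.4% ± 0.85 (DMT) and Nlgn1 between 5.14% ± 0.32 (DMT) and 9.97% ± 0.81 (vHipp). The order Nlgn2, Nlgn3, Nlgn1 was the same in all 6 regions, as the bars of family shares show. In CPM, Nlgn2 was highest in the ACC (350.2 ± 21.6) and lowest in the DMT (262.9 ± 12.4), a 1.33-fold difference without overlap (log2 0.41, SE 0.016, adjusted p = 2.9e-64). BLA against mPFC (adjusted p = 0.082) and mPFC against Nacc (0.21) did not pass, although the former did without the 12 Nacc libraries (log2 0.035 higher in the BLA, adjusted p = 0.044) and under 2 other settings, DESeq2 size factors and the filterByExpr filter. Nlgn3 had the smallest regional range of the 9 genes. It reached 150.6 ± 6.3 CPM in the vHipp and 122.7 ± 6.2 in the DMT, a 1.23-fold difference (log2 0.30, SE 0.012, adjusted p = 1.1e-60), and yet all 15 pairs passed, with a small spread between mice. The BLA and Nacc pair was lost without the 12 Nacc libraries (adjusted p = 0.11).

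Nlgn1 stood apart from its paralogs in the DMT. The lowest, median and highest of 41 mice were 34.7, 42.6 and 50.2 CPM in the DMT, against 87.5, 103.3 and 127.1 in the vHipp and 80.96, 100.5 and 116.9 in the mPFC. The DMT did not overlap with any other region. The vHipp was 2.45-fold above the DMT (log2 1.29, SE 0.029, adjusted p = 5.2e-105). The pairs vHipp and mPFC (adjusted p = 0.072), BLA and ACC (0.35) and ACC and Nacc (0.18) did not pass. The first of these pairs did pass with DESeq2 size factors and with the filterByExpr filter. The log2 ratio of Nlgn2 to Nlgn1 counts was accordingly 2.62 ± 0.096 in the DMT and between 1.59 ± 0.13 (vHipp) and 1.98 ± 0.14 (ACC) elsewhere.

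**Figure D2:**
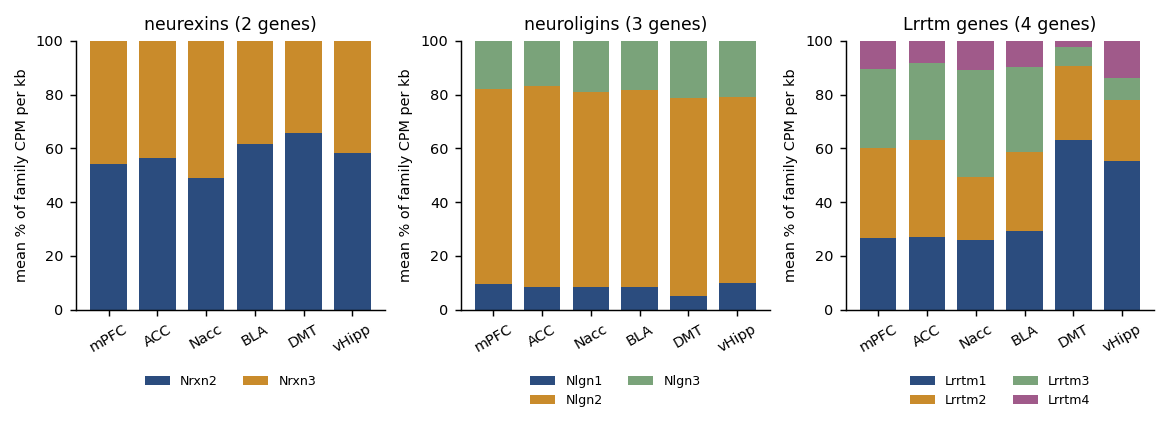
Mean share (in percent, y axis from 0 to 100) that each gene takes of its family's summed CPM per kb, in 6 regions (x axis), averaged over 41 mice, for the 2 neurexins, the 3 neuroligins and the 4 Lrrtm genes. In the neuroligin bars Nlgn2 takes the largest part in all regions, 69.2% to 74.9%, while Lrrtm1 takes 62.9% of the Lrrtm level in the DMT and 25.9% in the Nacc.

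Lrrtm1, Lrrtm3 and Lrrtm4 had the largest regional differences of the 9 genes, each with its peak in another region. Lrrtm1 had a lowest, median and highest level of 101.2, 190.9 and 236.3 CPM in the DMT and of 83.0, 91.04 and 104.8 in the vHipp, whereas the other 4 regions had medians between 41.04 (ACC) and 43.7 (mPFC) and no library above 65.8. The DMT was 4.65-fold above the ACC without overlap (log2 2.22, SE 0.039, adjusted p = 3.3e-125). Of the pairs among BLA, mPFC, Nacc and ACC, neighbours in this order did not pass (adjusted p between 0.11 and 0.81), while the ACC was below the BLA (log2 0.11, SE 0.038, adjusted p = 0.0056) and the mPFC (log2 0.10, SE 0.038, adjusted p = 0.023). Nacc against BLA did not pass (adjusted p = 0.28), but did without the 12 Nacc libraries (log2 0.095 higher in the BLA, adjusted p = 0.036). The DMT library with 101.2 CPM, from ELA_SAFit2 NoInteraction mouse 15, was also the lowest of the DMT for Nrxn3, Lrrtm2 and thalamic markers (1479 CPM), and the DMT mean was 192.2 ± 20.5 without it.

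Lrrtm2 shared the peak in the DMT. Its mean was 164.4 ± 19.1 CPM there, 110.0 ± 18.7 in the mPFC and 109.9 ± 15.1 in the ACC, then 88.1 ± 6.0 in the BLA, 76.6 ± 9.2 in the Nacc and 75.6 ± 3.8 in the vHipp. DMT and vHipp differed 2.17-fold without overlap (log2 1.11, SE 0.037, adjusted p = 1.2e-76), while mPFC against ACC (adjusted p = 0.97) and Nacc against vHipp (0.70) did not pass. The exons of Ctnna1 overlap those of Lrrtm2. Ctnna1 was also highest in the DMT (76.0 ± 4.7 CPM) and lowest in the vHipp (49.4 ± 3.8 CPM). Between these extremes the orders differed. Mean Ctnna1 was higher in the BLA (67.33 CPM) and Nacc (58.96 CPM) than in the ACC (52.22 CPM) and mPFC (50.22 CPM). Mean Lrrtm2 was higher in the mPFC and ACC than in the BLA and Nacc. The part of Ctnna1 in the Lrrtm2 values was not tested.

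Lrrtm3 ran in the other direction from Lrrtm1. The lowest, median and highest levels were 43.1, 93.6 and 133.0 CPM in the Nacc, 41.4, 68.9 and 83.7 in the mPFC, 43.5, 68.0 and 93.7 in the BLA and 50.9, 60.2 and 71.9 in the ACC. They were 22.3, 29.9 and 36.6 CPM in the DMT and 9.9, 18.2 and 28.3 in the vHipp. No library of the DMT or the vHipp reached the lowest library of the other 4 regions. The Nacc was 4.87-fold above the vHipp (log2 2.28, SE 0.047, adjusted p = 3.0e-111), and only the pair of mPFC and BLA did not pass (adjusted p = 0.45). The lowest Nacc library was that of mouse 99, without which the Nacc mean was 93.3 ± 13.2 CPM. Ctnna3, the host gene of Lrrtm3, had means between 0.84 and 1.69 CPM over the 6 regions.

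Lrrtm4, which is known as a ligand of heparan sulfate proteoglycans, had its highest mean in the vHipp (46.7 ± 8.8 CPM) and its lowest in the DMT (14.5 ± 1.6 CPM), 3.22-fold apart without overlap (log2 1.69, SE 0.041, adjusted p = 6.2e-99). Nacc against mPFC did not pass (adjusted p = 0.084). Per kb, Lrrtm1 made up 62.9% ± 2.2 of the Lrrtm level in the DMT and 55.2% ± 2.9 in the vHipp, Lrrtm3 made up 39.6% ± 4.1 in the Nacc, and Lrrtm2 made up 36.3% ± 3.7 in the ACC. Lrrtm2 also had the largest mean share in the mPFC (33.4% ± 4.4). In the BLA, Lrrtm3, Lrrtm2 and Lrrtm1 lay close together (31.4% ± 4.2, 29.4% ± 1.4 and 29.3% ± 5.0). The Lrrtm gene with the largest share thus differed between some regions, whereas among the neuroligins it was Nlgn2 throughout. The largest difference between any 2 regions was above the median of all genes (log2 0.72) for all 4 Lrrtm genes, Nlgn1 and Nrxn3, and below it for Nrxn2, Nlgn2 and Nlgn3.

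The genes with the most similar profile were sought over the 36 means of region, condition and set, which come from the same 41 mice and mainly reflect the 6 regions. For Lrrtm1 they were Fam163a (Pearson r = 0.99), Itsn1 (0.99) and Shox2 (0.99), for Lrrtm2 Far2, Zdhhc22 and Kpna2 (r = 0.99, 0.98 and 0.98) and for Lrrtm4 Zfp146, Zmynd11 and Limd2 (0.98, 0.98 and 0.98). For Nrxn2 they were Grm8, Tll2 and Ldb2 (0.94, 0.93 and 0.92), and for Nrxn3 Grm3, Jcad and Zbtb34 (0.98, 0.97 and 0.97). For the neuroligins they were Nucks1, Dscaml1 and Tnks2 for Nlgn1 (0.99 each), Rtn1, Lclat1 and Oprd1 for Nlgn2 (0.97, 0.96 and 0.96) and Zfp646, Mideas and Zfp609 for Nlgn3 (0.96 each). Closest to Lrrtm3 was Gm10118 (r = 0.99), followed by Npas2 (0.98) and Ttc7 (0.97). Gm10118 lies on the same strand as Lrrtm3 with 1037 bases between the genes, past the 3′ end of Lrrtm3.

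The comparison of ELA_Veh with Ctrl_Veh asks what adversity changes, that of ELA_SAFit2 with ELA_Veh what the drug changes after adversity, and that of ELA_SAFit2 with Ctrl_Veh what difference is left. They share their groups and are not independent. No member passed the adjusted p of 0.05 in any of them, in any of the 6 regions, in either set or in the mean of both sets. For all genes the share called over these tests was 0.00105% in ELA_Veh against Ctrl_Veh, 0.0014% in ELA_SAFit2 against ELA_Veh and 0.00281% in ELA_SAFit2 against Ctrl_Veh, so that calls were rare throughout. In the 324 tests of the members in single sets, the smallest adjusted p was 0.36 and 6 tests had an unadjusted p under 0.05 (7 with DESeq2, also with 0 calls), a share of 1.85% beside 4.38% over all genes. In the 162 tests of the mean of both sets, 4 had an unadjusted p under 0.05, a share of 2.47% beside 4.73% over all genes. The largest fold change in them was 0.18 on the log2 scale. The median size of the fold changes of the members was log2 0.027 in these tests, beside 0.039 over all genes.

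**Figure D3:**
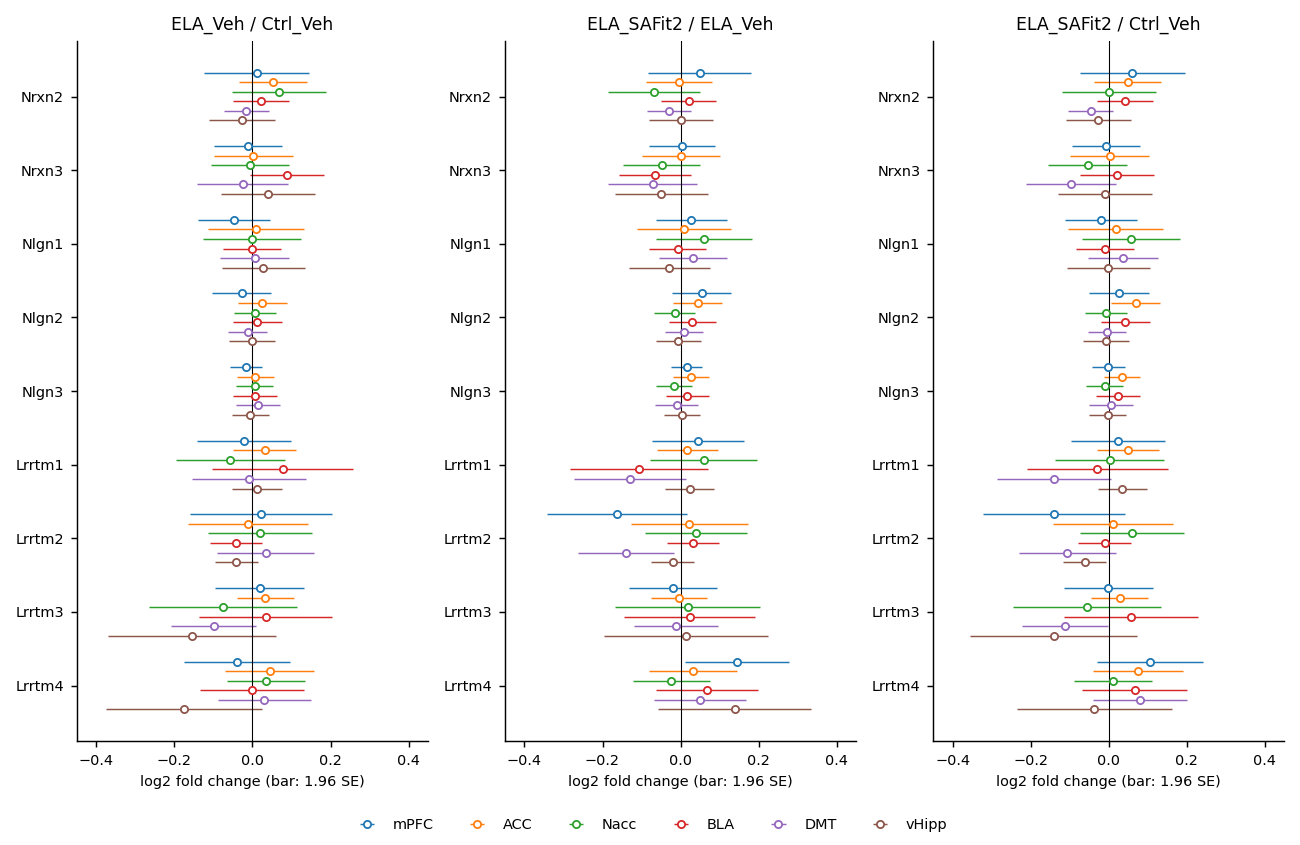
Fold change of each of the 9 genes (y axis) on the log2 scale (x axis) in the 3 comparisons of conditions, as the mean over both sets, with a point for each of 6 regions and a bar for the 95% interval. Every point is open, since none passed the adjusted p of 0.05, and the largest lies at 0.18 from 0.

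The difference between the comparisons with and without social interaction was not called for any member either, beside 0.00772% of the tests over all genes, and the smallest adjusted p was 0.41. With the counts of the 6 regions of a mouse summed, no member was called in a comparison of conditions, beside 0.00384% over all genes. In single sets 1 of these 54 tests had an unadjusted p under 0.05, a share of 1.85% beside 4.84% over all genes.

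The 6 tests came from 4 genes, Nrxn2 in the Nacc, Lrrtm4 in the mPFC, Nlgn2 in the ACC and Nrxn3 in the BLA. Nrxn2 in the Nacc of the NoInteraction set had a lowest, median and highest level of 324.9, 379.0 and 535.9 CPM in ELA_Veh, 302.8, 349.0 and 432.6 in Ctrl_Veh and 316.7, 354.0 and 380.9 in ELA_SAFit2. The 3 groups overlapped, and the highest value is that of mouse 99, without which the ELA_Veh mean was 390.0 in place of 410.8 CPM, beside 353.4 CPM in ELA_SAFit2. ELA_SAFit2 differed from ELA_Veh by -0.22 on the log2 scale (SE 0.085, edgeR, adjusted p = 0.36), and by -0.21 (adjusted p = 0.81) without the 12 Nacc libraries. In the SocialInteraction set the same difference had the other sign (0.082, SE 0.085, adjusted p = 0.9995). Lrrtm4 in the mPFC of the NoInteraction set had levels of 26.3, 31.7 and 39.1 CPM in ELA_Veh, 31.5, 36 and 39.6 in Ctrl_Veh and 31.7, 35.9 and 40.3 in ELA_SAFit2. ELA_Veh was at -0.20 against Ctrl_Veh (SE 0.096, adjusted p = 0.97) and ELA_SAFit2 at 0.22 against ELA_Veh (SE 0.096, adjusted p = 0.93). With social interaction ELA_Veh was at 0.12 against Ctrl_Veh (SE 0.10, adjusted p = 0.94).

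Nlgn2 in the ACC of the SocialInteraction set had a lowest, median and highest level of 332.1, 370.4 and 378.1 CPM in ELA_SAFit2, 304.0, 331.0 and 373.7 in Ctrl_Veh and 298.3, 355.6 and 378.7 in ELA_Veh. The 3 groups overlapped. ELA_SAFit2 was at 0.12 against Ctrl_Veh (SE 0.047, edgeR, adjusted p = 0.47), and at 0.022 in the NoInteraction set (SE 0.045, adjusted p = 0.9999). Nrxn3 in the BLA of the NoInteraction set was at -0.14 in ELA_SAFit2 against ELA_Veh (SE 0.067, adjusted p = 0.9997).

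The intervals show which effects these samples could still hold. For the mean of both sets the median SE over members and regions was between 0.050 and 0.051 on the log2 scale, and the widest bound of a 95% interval was 0.37 in ELA_Veh against Ctrl_Veh. For Nlgn3, the gene with the least spread, the bounds in the mPFC were -0.057 and 0.025 for ELA_Veh against Ctrl_Veh.

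Ratios of paralogs were compared over mice, because they do not depend on the scaling of a library. The log2 ratio of Nlgn2 to Nlgn1, averaged over the 6 regions of a mouse, was 1.98 ± 0.06 (SD, n = 7) in ELA_Veh and 1.91 ± 0.06 (n = 7) in Ctrl_Veh without social interaction. The difference of 0.073 had an exact two-sided permutation p of 0.040 and an adjusted p of 0.24 over 12 tests. With social interaction the order was turned, with 1.94 ± 0.05 (n = 7) in ELA_Veh and 2.01 ± 0.05 (n = 6) in Ctrl_Veh, a difference of -0.068 (exact permutation p = 0.026, adjusted p = 0.24). Neither passed after adjustment. The ratio of Nrxn2 to Nrxn3 differed by -0.063 to 0.085 between conditions (adjusted p between 0.40 and 0.81 by the exact permutation test).

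Social interaction was followed by a higher level of Lrrtm3 in both cortical regions. In the mPFC the lowest, median and highest levels were 58.0, 74.0 and 83.7 CPM in the 20 mice after social interaction and 41.4, 63.6 and 72.2 CPM in the 21 mice without it. The sets overlapped, with 15 of the 20 mice above all mice without the interaction and 16 above their median. In the ACC the levels were 57.9, 64.5 and 71.9 CPM against 50.9, 55.7 and 65.9 CPM, with 7 of the 20 mice above all mice without the interaction and all 20 above their median. Averaged over the 3 conditions, Lrrtm3 rose by log2 0.21 in the mPFC (SE 0.047, edgeR, adjusted p = 0.0041) and by 0.19 in the ACC (SE 0.030, adjusted p = 0.00019), and by 0.10 with the regions of a mouse summed (SE 0.032, adjusted p = 0.039). By p it ranked 17 of 15722 genes in the ACC and 318 of 15812 in the mPFC.

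The background of these calls differs by region. Over all genes 7.4% were called in the mPFC and 4.15% in the ACC, against 1.49% in the BLA, 1.6% in the DMT, 1.21% in the vHipp, 0% in the Nacc and 8.56% with the regions summed. Of the 9 members, 2 were called in the mPFC (Lrrtm3 and Nlgn3), 1 in the ACC, 1 with the regions summed (both Lrrtm3) and 0 in the BLA, DMT, vHipp and Nacc. In these 4 regions, 6 tests had an unadjusted p under 0.05 (edgeR), 4 in the BLA and 2 in the DMT. In the BLA these were Lrrtm3 at 0.17 (SE 0.071, adjusted p = 0.22) and Nlgn1 at -0.094 (SE 0.031, adjusted p = 0.11). They also included Nrxn3 at -0.089 (SE 0.039, adjusted p = 0.26) and Lrrtm2 at 0.072 (SE 0.028, adjusted p = 0.19). In the DMT they were Nlgn1 at -0.089 (SE 0.037, adjusted p = 0.27) and Nlgn2 at -0.051 (SE 0.021, adjusted p = 0.24). Over the 6 regions 9 of 54 tests of the members were under 0.05 (16.67%), beside 13.2% over all genes. The median over the 54 fold changes of the members was 0.0082, beside -0.00085 over all genes.

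**Figure D4:**
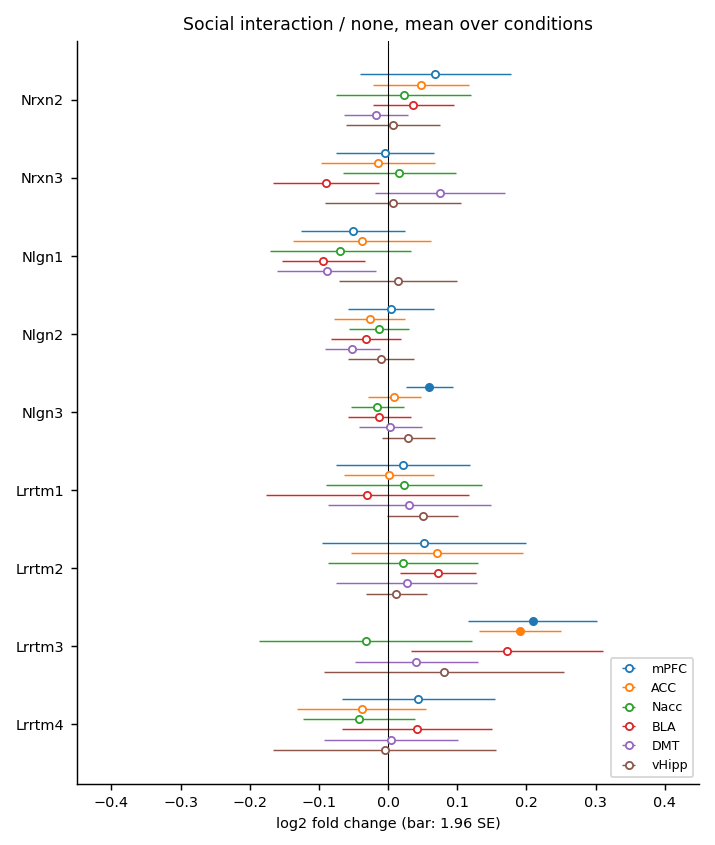
Fold change after social interaction against none on the log2 scale (x axis), averaged over the 3 conditions, for the 9 genes (y axis) in 6 regions, with bars for the 95% interval and filled points where the adjusted p is under 0.05. The 3 filled points are Lrrtm3 in the mPFC (0.21) and the ACC (0.19) and Nlgn3 in the mPFC (0.060).

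Within conditions, Lrrtm3 passed edgeR's test in ELA_SAFit2 in both cortical regions, and DESeq2 also called it in the ACC of ELA_Veh (log2 0.21, adjusted p = 0.027). In the mPFC the fold change was log2 0.094 (SE 0.084, adjusted p = 0.75) in Ctrl_Veh, 0.22 (SE 0.081, adjusted p = 0.33) in ELA_Veh and 0.31 (SE 0.081, adjusted p = 0.041) in ELA_SAFit2, where 1.21% of all genes were called. In the ACC it was 0.11 (SE 0.054, adjusted p = 0.37), 0.21 (SE 0.052, adjusted p = 0.11) and 0.25 (SE 0.052, adjusted p = 0.043) in the same order, with 0.07% of all genes called in ELA_SAFit2. The test of the difference between conditions passed in no region, so the response is not shown to differ between them. Leaving out 1 mouse at a time, the call was lost for 10 of 41 mice in the mPFC (adjusted p up to 0.11, log2 0.24 to 0.32 in these fits) and for 16 of 41 in the ACC (up to 0.15, log2 0.23 to 0.25). In the ACC, 5 of these were Ctrl_Veh mice, 2 without and 3 after social interaction, with the fold change kept at 0.25 and an adjusted p between 0.050 and 0.053.

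The groups with and without social interaction overlapped in each condition in both regions. In the mPFC of ELA_SAFit2 the 7 mice after social interaction had a lowest, median and highest level of 58.0, 76.1 and 83.7 CPM, and the 7 mice without it 41.4, 63.6 and 71.2 CPM. The lowest value, from mouse 15, came from a library with olfactory bulb markers at 212.4 CPM (rank 4 of 41, median of the mPFC 19.3 CPM). This library also ranked 4 of 41 for GABAergic markers (1193 CPM, median 811.5 CPM) and was lowest for striatal markers (82.4 CPM, median 124.2 CPM). Whether these marker levels bear on its Lrrtm3 value was not tested. Without this mouse the response in ELA_SAFit2 was 0.24 and no longer called (adjusted p = 0.093, edgeR), and the mean response over conditions was 0.18 (SE 0.040, adjusted p = 0.0026). In the ACC of ELA_SAFit2 the levels were 58.7, 64.9 and 71.9 CPM against 53.5, 55.5 and 60.9 CPM. ELA_Veh mice had 60.95, 65.2 and 70.8 CPM in the ACC after social interaction and 50.9, 56.9 and 65.9 CPM without it, and Ctrl_Veh mice had 57.9, 62.6 and 67.1 CPM against 52.3, 57.3 and 64.0 CPM. Without mouse 99, which held the lowest value, the mean response in the ACC was 0.18 (SE 0.030, adjusted p = 0.00030).

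**Figure D5:**
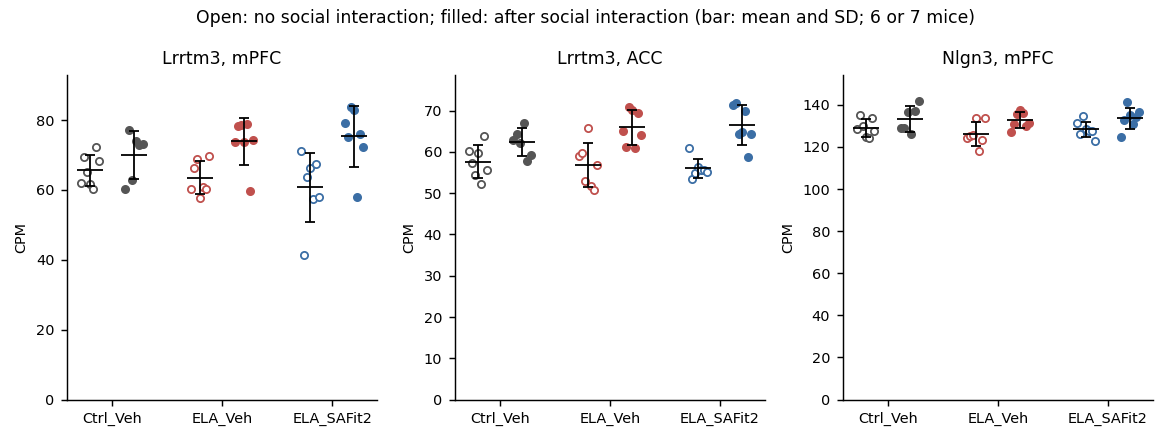
Levels in CPM (y axis, from 0) of Lrrtm3 in the mPFC and the ACC and of Nlgn3 in the mPFC, by condition (x axis), with open points for mice without and filled points for mice after social interaction, and bars for the mean and SD of 6 or 7 mice. Lrrtm3 in the ACC reached a mean of 66.5 CPM after social interaction and 56.0 CPM without it in ELA_SAFit2 mice, while the Nlgn3 means stayed between 126.2 and 133.6 CPM.

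Nlgn3 rose by a small amount in the mPFC. The lowest, median and highest levels were 124.7, 133.4 and 141.8 CPM after social interaction and 118.1, 127.4 and 135.4 CPM without it, with overlap in each condition. The fold change averaged over conditions was log2 0.060 (SE 0.017, edgeR, adjusted p = 0.023), and the call was lost when any of 4 of the 41 mice was left out (adjusted p up to 0.054). In the ACC the sets had medians of 126.1 and 125.7 CPM.

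Whether the response differed between regions was tested in a fit over all libraries with mouse as a block. Over all genes 0.644% were called, and no member was. Lrrtm3 had an unadjusted p of 0.033 (adjusted p = 0.63) and Nlgn3 of 0.021 (adjusted p = 0.52), and for Lrrtm3 the unadjusted p was 0.12 without the 12 Nacc libraries, so neither rise is shown to be particular to the cortical regions. Homer1, an excitatory scaffold gene known to be induced by neuronal activity, passed the same test (adjusted p = 4.3e-06).

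The genes around Lrrtm3 were read beside it. Gm10118, the entry downstream of it, was at log2 0.28 in the ACC (SE 0.053, adjusted p = 0.0012) and at 0.18 in the mPFC (SE 0.068, adjusted p = 0.11). The host gene Ctnna3 was at -0.18 in the mPFC (SE 0.16, edgeR, adjusted p = 0.61) and at -0.084 in the ACC (SE 0.16, adjusted p = 0.85). With the regions summed, Ctnna3 was at -0.11 averaged over conditions (SE 0.066, adjusted p = 0.34). In ELA_SAFit2 alone the summed value fell by 0.44 (SE 0.11, adjusted p = 0.036), where 1.61% of all genes were called. Ctnna3 was low, with region means between 0.84 and 1.69 CPM. Of 64 marker genes tested in the mPFC, 1 was higher after social interaction, and of 65 in the ACC 1 was higher and 3 were lower. Over all genes, 7.4% were called in the mPFC and 4.15% in the ACC. The gene higher in both was Cspg4, a marker of oligodendrocyte precursors, and the lower ones were Gja1 (astrocytes), P2ry12 (microglia) and Slco1a4 (endothelial cells). No other marker of these cell types was called in the 2 regions. The median fold change of the 3 precursor markers was log2 0.060 in the mPFC and -0.046 in the ACC. The summed glutamatergic markers had medians of 5170 CPM after and 5143 CPM without social interaction in the mPFC, and of 5402 and 5372 CPM in the ACC. The median fold change of the 6 striatal markers was log2 -0.11 in the mPFC and 0.21 in the ACC. That of the 6 GABAergic markers was 0.10 and 0.092. Single libraries held summed striatal markers of up to 950.3 CPM in the mPFC (median 124.2 CPM) and 937.7 CPM in the ACC (median 155.6 CPM). The part of cell composition in the Lrrtm3 values was not tested.

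The partners of the 9 genes were taken from a list of 38 genes in 7 groups. After social interaction 4 rose and 0 fell in the mPFC, 3 rose and 0 fell in the ACC, 1 rose and 1 fell in the BLA, and 0 were called in the Nacc, DMT and vHipp. Over all genes, 7.4% were called in the mPFC, 4.15% in the ACC and 1.49% in the BLA. The counts are small, and whether these lists responded more than other genes was not tested. Of the 15 other neurexin ligands, Cbln2 and Cbln4, secreted proteins that link neurexins to postsynaptic receptors, rose in both cortical regions. Cbln2 rose from 44.6 ± 5.0 CPM (n = 21) to 52.7 ± 5.8 CPM (n = 20) in the mPFC (log2 0.24, SE 0.050, edgeR, adjusted p = 0.0016) and by 0.20 in the ACC (SE 0.053, adjusted p = 0.023). Cbln4 rose by 0.62 in the mPFC (SE 0.14, adjusted p = 0.0038) and by 0.40 in the ACC (SE 0.12, adjusted p = 0.045), at levels of 11.7 ± 3.4 and 6.9 ± 1.9 CPM after the interaction. Nxph1, a secreted ligand of alpha-neurexins, fell by 0.19 in the BLA (SE 0.046, adjusted p = 0.026).

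Of the 8 postsynaptic scaffold genes, Homer1 rose by log2 0.58 in the mPFC (SE 0.065, adjusted p = 2.3e-07, edgeR), 0.49 in the ACC (SE 0.077, adjusted p = 0.00016) and 0.27 in the BLA (SE 0.064, adjusted p = 0.025). Gphn, which encodes the inhibitory scaffold gephyrin, rose by 0.081 in the mPFC (SE 0.022, adjusted p = 0.016) and is named here after its value was seen. None of the 2 neuroligin inhibitors, 5 presynaptic adaptors, 3 splicing factors of neurexins, 2 shedding proteases and 3 host genes was called in a region with the conditions averaged. In the comparisons of conditions no gene of the 7 groups was called in a region. Between regions, the gene with the widest range within its own list was C1ql2 among the ligands, a secreted linker to kainate receptors, with 56.8 ± 16.2 CPM in the vHipp and 1.16 ± 0.42 in the mPFC. It was Mdga1 among the inhibitors, which blocks the binding of neuroligins to neurexins, with 84.8 ± 12.9 CPM in the vHipp and 13.8 ± 5.0 in the ACC, and Homer1 among the scaffolds, with 231.2 ± 58.3 CPM in the mPFC and 35.8 ± 4.0 in the DMT. Khdrbs3, an RNA-binding protein of neurexin splicing, ranged from 203.4 ± 19.3 CPM in the ACC to 60.7 ± 13.3 in the Nacc, and the adaptor gene Apba1 from 401.8 ± 26.2 CPM in the DMT to 155.3 ± 17.2 in the Nacc. Mmp9, a protease of neuroligin 1, stayed between 0.91 ± 0.24 CPM in the Nacc and 1.98 ± 0.34 in the vHipp.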

How the data were processed

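RNA was sequenced from punches of 6 regions of 41 mice with a stranded poly-A kit. The authors deposited estimated counts per gene, of which 12.12% of the values were not whole (tolerance 1e-06), and these were rounded. The table names salmon, and the processing notes name STAR, DESeq2 and build GRCm39, and the step each served is not given in the sources used here. Groups came from the sample labels. Litters are not in the labels, so that litter was not a term in any fit.

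Filtering removed genes that are not protein-coding, whose counts added up to under 100, or that were detected in under 6 libraries, and 3640 identifiers without a gene type were left out. Each region was fitted with TMM scaling and the quasi-likelihood test of edgeR 4.0.16 (R 4.3.3), with Benjamini-Hochberg adjustment over all genes tested and a threshold of 0.05. Regions were compared with mouse as a block, since the 6 libraries of a number come from the same animal. This pairing was checked, in each region, on 60 genes whose levels set animals apart alike in the other regions (median correlation of a library with the other regions of its mouse between 0.968 and 0.973), and 12 Nacc libraries matched another mouse. DESeq2 1.42.0 and limma 3.58.1 served as alternatives. Ratios used a pseudocount of 0.5 and an exact permutation test (Python 3.11.15, SciPy 1.17.1). The tests were checked on simulated data. The changes planted for the edgeR fits were larger than any fold change of the 9 genes between conditions or after social interaction. The check therefore does not cover such small effects. All 9 members are named. From the partner lists, at most 3 called genes per comparison and the gene of widest regional range per list are named, and per member the 3 genes with the most similar profile. The members and lists were chosen with earlier results of these data known.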

Additional observations from a re-analysis of the deposited data

Results flagged for a closer look

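In 2 of 30 groups checked, the lowest or highest of 7 mice lay apart from the others by more than Dixon's 95% critical value of 0.568 for the gap over the range, and chance alone flags about 1 in 20 groups. Lrrtm3 in the mPFC of ELA_Veh mice after social interaction had a lowest value of 59.72 CPM, with the next mouse at 73.62 CPM (gap over range 0.73). Lrrtm3 in the ACC of ELA_SAFit2 mice without social interaction had a highest value of 60.94 CPM, with the next mouse at 56.43 CPM (gap over range 0.60).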

How the results depend on the processing

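Between regions, 116 to 120 of 135 tests of the members were called under the 7 alternatives. The Nacc and BLA pair was lost for Nlgn1 and Nlgn2 with no filter on low counts. For Nlgn1 it was also lost with all gene types. The pairing of libraries by mouse changed no call there, with 118 calls without the block and with it. The comparisons of conditions had 0 calls under every alternative, and for the mean of both sets no fit with the libraries of a single set can be made. The number of members called after social interaction in single conditions was 2. It fell to 1 with no filter on low counts and to 1 with only the libraries of the condition. With DESeq2 it was 3, which added Lrrtm3 in the ACC of ELA_Veh. With the regions summed, the only call over all comparisons was Lrrtm3 after social interaction, averaged over conditions. The number of summed calls was 0 instead of 1 with all gene types (smallest adjusted p = 0.051, edgeR). Without the Nacc it was 2 (smallest adjusted p = 0.0015, edgeR). The cause was not tested. Leaving out each mouse in turn, a choice made after seeing the data like the test of the response between regions, kept the rise of Lrrtm3 averaged over conditions called for all 41 mice (log2 0.18 to 0.22 in the mPFC and 0.18 to 0.20 in the ACC). The ratios of paralogs had 0 calls in each case, with a smallest adjusted p between 0.091 and 0.33 by the exact permutation test. With 6 or 7 mice per group, small differences between conditions can be missed, and isoforms and splice sites of the neurexins cannot be read from counts per gene.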
